A study of Mus musculus with 6 samples.

Results

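Helix-loop-helix transcription factors were examined in sorted splenic follicular Th (Tfh) cells through 7 genes: the E protein genes Tcf3, Tcf12 and Tcf4, the Id protein genes Id2 and Id3, and the bHLH genes Ascl2 and Bhlhe40. They were chosen by name and not by their values, although earlier results of these data were known. They are 7 of the 53379 gene identifiers in the count files. Tfh cells came from 3 control (CTL) and 3 Prdm1-CKO female mice, 6 to 8 weeks old, on day 7 after immunization with NP-CGG in CFA, and each mouse gave 1 Smart-seq2 library. Prdm1-CKO mice were Prdm1 fl/fl and CD11c-CRE+. CTL mice were either Prdm1 fl/fl and CD11c-CRE- or Prdm1 +/+ and CD11c-CRE+, and which of these each CTL mouse was is not labelled. The CD11c promoter drives Cre mainly in DCs, so the comparison asks how Tfh cells differ when BLIMP-1 is deleted in another cell. The sort kept live TCRβ+ CD4+ CXCR5+ PD1+ cells, with no step stated that removed FOXP3+ cells.

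E proteins bind DNA at E boxes, short sites of the form CANNTG, as dimers with each other or with tissue-specific bHLH proteins such as ASCL2. Id proteins keep the helix-loop-helix that pairs with E proteins but lack the basic region that touches DNA, so a dimer with an Id protein does not bind. The balance of E and Id proteins is best known from T and B cell development, and in CD4+ T cells ID2 and ID3 are known to restrain the Tfh fate. ASCL2 is known to promote CXCR5 expression and migration to the follicle. BHLHE40 is mainly a transcriptional repressor that shapes cytokine production by T cells.

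The libraries held between 7147601 and 16973392 counts, and a level of 3 counts, taken as the smallest a library could show, was 0.169 to 0.443 CPM (counts scaled to library size with TMM factors), which covers counting error only. CTL replicate 2 stood apart. It had the fewest genes detected, 16650 at 8623180 counts, whereas the shallower CTL replicate 3 had 18480 at 7147601 counts. The score of CTL replicate 2 on the leading principal component (56.4% of the variance in log2 CPM) was 134.6, and the scores of the other 5 mice ran from -29.1 to -24.0. Differences between the groups are therefore also given without it where it bears on them. The 12 Tfh markers were all detected and summed to 2984 to 3863 CPM in CTL and 2900 to 3186 CPM in Prdm1-CKO mice. Prdm1 itself, which is not deleted in Tfh cells, was at 28.8, 29.9 and 27.5 CPM in CTL and 30.1, 30.7 and 30.8 CPM in Prdm1-CKO mice. The groups did not overlap, the log2 difference was 0.09 (SE 0.192) and the adjusted p from edgeR was 0.996, so Prdm1 counts do not check the genotype.

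Other cells were also represented in the sorted RNA. The 14 B cell markers summed to 318, 167 and 231 CPM in the CTL mice and to 379 to 431 CPM in the Prdm1-CKO mice. Of the 14, 4 did not overlap between the groups (Cd79b, Pax5, Cr2 and Spib), against 8.44% of the 14555 genes tested. CTL replicate 2 had 0 counts of Pax5 and Spib, and CTL replicate 3 had 1 of Cr2. Without the immunoglobulin gene Iglc2, left out after seeing the data, the sums were 242, 126 and 160 CPM and 315, 207 and 314 CPM, and the groups overlapped. The 8 plasma cell markers summed to 611 to 811 CPM in CTL and 863 to 1104 CPM in Prdm1-CKO mice. Macrophage markers summed to 2402 to 5345 CPM and 4273 to 5214 CPM in the same order. Foxp3, the regulatory T cell factor, lay at 173 CPM in CTL and 156 CPM in Prdm1-CKO mice on average. In bulk RNA, fewer cells of a type and less RNA per cell cannot be told apart.

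Before the values, the promoters of some of these genes are shown, because the proteins under study bind E boxes and E boxes also stand in front of several of their own genes. The sequences are from RefSeq on GRCm38, where 5 of the 7 genes had an entry. Each covers the bases up to 250 before a transcription start that lie outside annotated exons. They are written 5′ to 3′ on the gene's strand in lower case, with every E box (CANNTG) in capitals.
Tcf3, chr10:80433648-80433885, minus strand: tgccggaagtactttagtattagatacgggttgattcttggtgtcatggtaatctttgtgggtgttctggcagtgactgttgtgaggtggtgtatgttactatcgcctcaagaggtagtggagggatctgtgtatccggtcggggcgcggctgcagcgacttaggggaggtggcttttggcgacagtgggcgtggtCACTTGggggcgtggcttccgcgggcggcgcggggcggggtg
Tcf12, chr9:72111872-72112069, minus strand: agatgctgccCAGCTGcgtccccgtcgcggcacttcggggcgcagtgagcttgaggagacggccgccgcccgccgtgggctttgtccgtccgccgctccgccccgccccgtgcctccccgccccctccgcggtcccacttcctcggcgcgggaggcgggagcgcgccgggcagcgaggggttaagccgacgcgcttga
Id2, chr12:25096254-25096342, minus strand: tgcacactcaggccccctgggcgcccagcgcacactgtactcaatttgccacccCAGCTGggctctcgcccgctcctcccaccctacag
Ascl2, chr7:142969265-142969514, minus strand: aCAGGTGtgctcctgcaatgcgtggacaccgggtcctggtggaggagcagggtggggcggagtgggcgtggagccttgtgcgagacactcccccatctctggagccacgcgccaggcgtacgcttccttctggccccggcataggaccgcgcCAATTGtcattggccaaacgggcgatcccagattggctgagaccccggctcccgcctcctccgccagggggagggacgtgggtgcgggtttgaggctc
The Ascl2 window held a pair of E boxes, CAGGTG and CAATTG, and Tcf12 and Id2 each held a CAGCTG. Tcf3 held a CACTTG close to its start. Tcf12 had 3 annotated windows, of which the most upstream is shown. The next, chr9:72111202-72111451, held 1 CANNTG of other letters and the last held 0. The Id2 stretch lies in an intron of a longer annotated Id2 transcript. The window of Id3 held 0 CANNTG and lies within an annotated exon, so it is not printed. CANNTG is its own reverse complement, so 1 search covers both strands, and across 32851 promoter windows of 250 bases 66.2% held at least 1, so its presence is common. The palindrome CAGCTG was in 13% of the windows, CACGTG in 6.02%, and CAGGTG or its reverse complement CACCTG in 17.2%. These are matches of letters and no binding was measured.

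Per length of the gene, in the RNA of the sorted Tfh cells, the Id genes were the most abundant of the 7 and Tcf4 the least. The part of other cells in these levels was not tested. Levels were compared between genes as RPKM, CPM per kilobase of the union of a gene's exons. Mean RPKM over the 6 mice was 100 for Id3, 76.2 for Id2, 17.7 for Bhlhe40, 10.5 for Tcf3, 3.58 for Ascl2, 3.35 for Tcf12 and 0.704 for Tcf4. Id3 and Id2 stood at the 97.2 and 95.8 percentiles of the protein-coding genes tested, Tcf3 at the 61.9 percentile and Tcf4 at the 10.1 percentile. By mean log2 RPKM the order was Id3, Id2, Bhlhe40, Tcf3, Tcf12, Ascl2 and Tcf4.

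**Figure D1:**
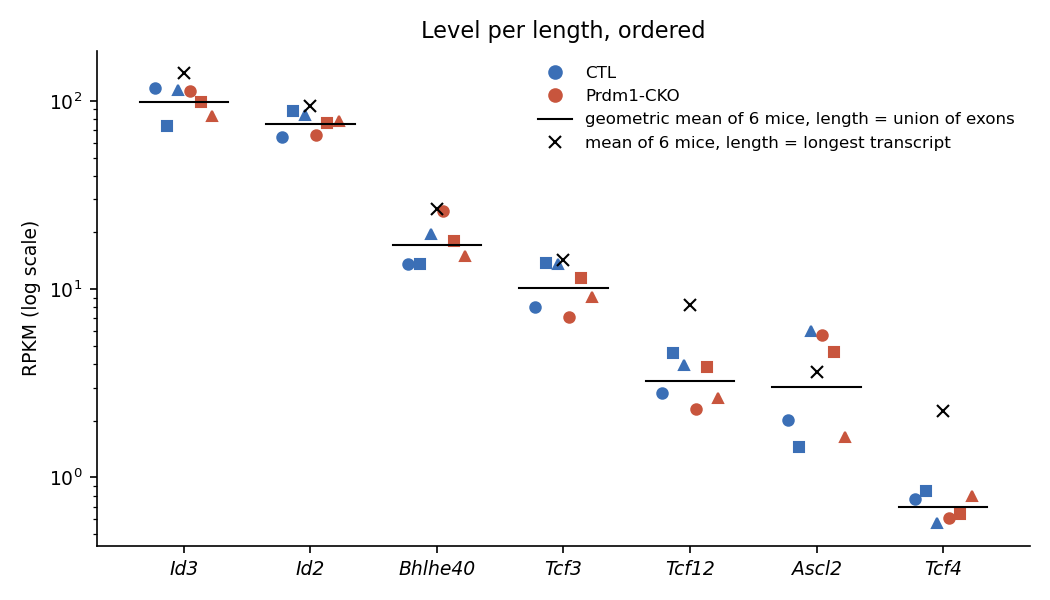
RPKM of each gene in each mouse on a log axis, the groups by colour and the replicate by marker shape, with a line at the geometric mean of 6 mice and a cross at the mean when the longest transcript is taken as the length. The Id genes lie between 64.3 and 118 RPKM in every mouse, and Tcf4 stays below 0.846 RPKM, although its cross is higher because its exon union is long.

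The 6 steps between neighbours in this order were tested within mice, with two-sided exact sign-flip permutation tests whose smallest possible p over 6 mice is 0.03125. The order was taken from these same values, so the tests are no independent check of it. Each difference also holds a fixed ratio of lengths, so the p-values apply only at the lengths chosen. No step passed 0.05 after Benjamini-Hochberg adjustment over the 6. Id2 was above Bhlhe40 in 6 of 6 mice, by 2.14 on the log2 RPKM scale (SD 0.452, exact p = 0.03125, adjusted p = 0.0625). Tcf3 was above Tcf12 in 6 of 6 mice, by 1.64 (SD 0.113, exact p = 0.03125, adjusted p = 0.0625), the most even of the 6 steps. Ascl2 was above Tcf4 in 6 of 6 mice, by 2.12 (SD 1.17), with the same exact p of 0.03125 and adjusted p of 0.0625.

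The other three steps did not hold in every mouse. Id3 was above Id2 in 5 of 6 mice, by 0.38 (SD 0.429, exact p = 0.09375, adjusted p = 0.1125), and in CTL replicate 2 Id2 was the higher. Bhlhe40 was above Tcf3 in 5 of 6 mice, by 0.76 (SD 0.613, exact p = 0.0625, adjusted p = 0.09375). Tcf12 was above Ascl2 in 3 of 6 mice, by 0.10 (SD 1.05, exact p = 0.8125), and without CTL replicate 2 the mean difference was -0.21, so these genes had no settled order.

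The choice of length bears on the order, most of all on its lower part. Tcf4 has 62 annotated transcripts with an exon union of 27382 bases against a longest transcript of 8577 bases, and Tcf12 has 15529 against 6299 bases. With the longest transcript as the length the order of the 7 stayed the same. The Ascl2 step over Tcf4 then shrank to 0.46 (exact p = 0.375) and the Tcf12 step over Ascl2 grew to 1.39 (exact p = 0.0625). The Tcf3 step over Tcf12 shrank from 1.64 to 0.79 (exact p = 0.03125). With no length, by CPM, Tcf12 was above Tcf3 in every mouse, with means of 52.1 and 42.3. By CPM Id2 also ranked above Id3, and Ascl2 was the least abundant at 5.81, below Tcf4 at 19.3.

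None of the 7 genes passed the test for a difference between Prdm1-CKO and CTL Tfh cells. In edgeR's quasi-likelihood test across 14555 genes, 0 of the 7 passed an adjusted p of 0.05, against 0% of all genes tested. At an unadjusted p under 0.05 there were again 0 of 7, against 2.35% of all genes. The CTL and Prdm1-CKO mice overlapped in all 7, whereas they did not overlap in 8.44% of all genes. Their median log2 fold change was -0.10, with 2 of 7 above 0, beside a median of 0.01 over all genes tested. By DESeq2, which gave 9 genes of the series an adjusted p under 0.05 (7 higher and 2 lower), the adjusted p was 1 for each of the 7. The p-values set each difference against the spread between these mice, estimated with information shared across genes.

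**Figure D2:**
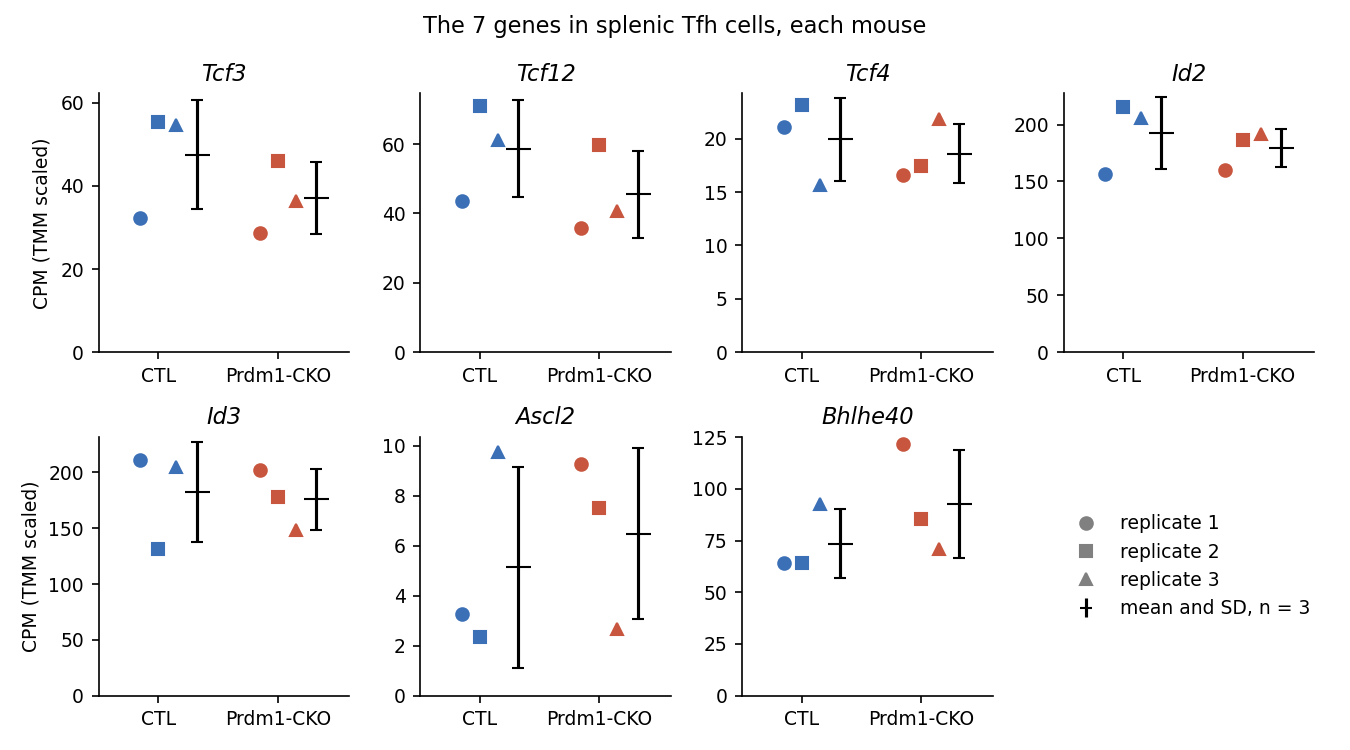
CPM of each of the 7 genes in the 3 CTL and 3 Prdm1-CKO mice, with the group mean and SD and the replicate given by the marker shape. In every panel the points of the groups overlap, most narrowly spread in Id2 and most widely in Ascl2.

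The E protein genes were lower on average in Prdm1-CKO Tfh by less than the spread between mice. Tcf3 (chr10:80409514-80433647, minus strand), which encodes the E12 and E47 proteins, was at 32.4, 55.4 and 54.8 CPM in CTL and 28.7, 46.0 and 36.5 CPM in Prdm1-CKO mice. CTL replicate 1 fell among the Prdm1-CKO values, and the remaining CTL mice were above all of them. The group means were 47.5 ± 13.1 and 37.1 ± 8.70 CPM (SD, n = 3 each), a log2 difference of -0.36 (SE 0.279, 95% interval -0.999 to 0.284, adjusted p = 0.996 from edgeR).

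Tcf12 (chr9:71842688-72111871, minus strand) encodes HEB, a partner of E2A in thymocytes. It was at 43.5, 71.1 and 61.3 CPM in CTL and 35.8, 59.8 and 40.9 CPM in Prdm1-CKO mice. Within each group the mice ranked in the same order as for Tcf3. Its means were 58.6 ± 14.0 and 45.5 ± 12.7 CPM (SD, n = 3 each), a log2 difference of -0.37 (SE 0.268, 95% interval -0.98 to 0.25, adjusted p = 0.996 from edgeR). Without CTL replicate 2 the differences were -0.25 for Tcf3 and -0.22 for Tcf12.

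Tcf4, which encodes E2-2, is best known for its role in plasmacytoid DCs and is also expressed in B cells. It was at 21.1, 23.2 and 15.7 CPM in CTL and 16.6, 17.4 and 21.8 CPM in Prdm1-CKO mice, and both the highest and the lowest mouse were CTL. The log2 difference was -0.10 (SE 0.261, 95% interval -0.70 to 0.50, adjusted p = 0.996 from edgeR), and 0.007 without CTL replicate 2. Siglech, which marks plasmacytoid DCs, counted 4, 0 and 0 in the CTL libraries against 9, 0 and 9 in those of Prdm1-CKO mice, and Cox6a2 and Klk1 had at most 2. Of the 10 genes of the same list, 6 passed the expression filter, and 3 of these were higher without overlap in Prdm1-CKO mice. Over all genes tested, 8.44% did not overlap in either direction. The 3 were Bst2, Ly6d and Spib, the last also on the B cell marker list, and which cells their transcripts came from was not tested. Their means were 45.4, 8.39 and 7.04 CPM in CTL and 55.4, 17.7 and 18.7 CPM in Prdm1-CKO mice. CTL replicate 2 was the lowest mouse for each, at 34.15, 0.709 and 0 CPM. Ccr9, Irf8 and Runx2 overlapped, with log2 differences of 0.18, 0.05 and -0.10. Within CTL the mouse with the lowest B cell marker sum, replicate 2 at 167 CPM, had the most Tcf4, and replicate 3 at 231 CPM had the least. Within Prdm1-CKO mice the one with the highest B cell marker sum, replicate 3 at 431 CPM, had the most Tcf4. Without Iglc2, however, Prdm1-CKO replicates 1 and 3 were nearly level at 315 and 314 CPM, and replicate 1 had the least Tcf4 of the group. The part of other cells in the Tcf4 level was not tested.

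**Figure D3:**
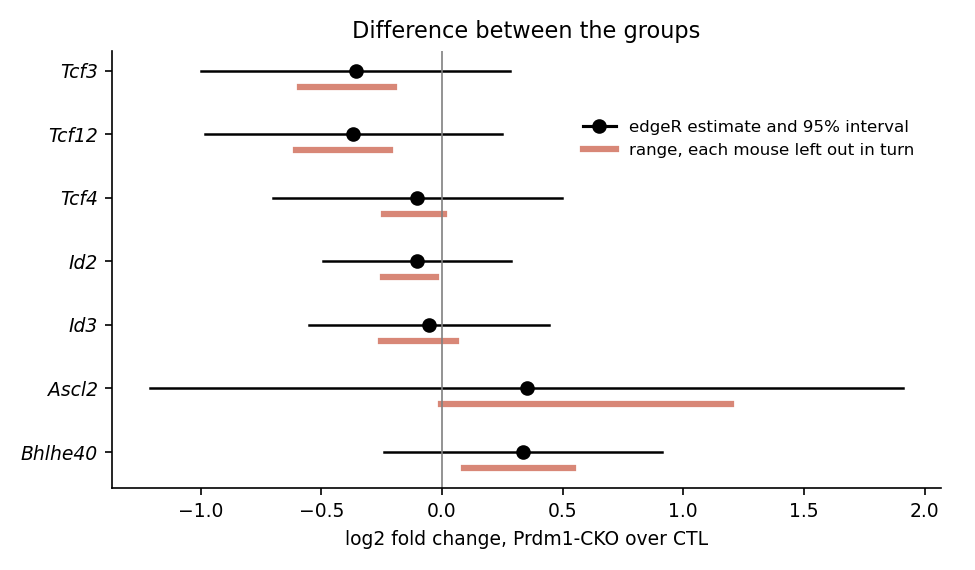
Log2 fold change of Prdm1-CKO over CTL for each gene, with the edgeR estimate and 95% interval in black and the range when each mouse is left out in turn in red. All 7 intervals cross 0, from the narrowest in Id2 (-0.49 to 0.28) to the widest in Ascl2 (-1.21 to 1.91).

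The means of the Id genes differed between the groups by less than the spread between mice. Id2 (chr12:25093799-25097140, minus strand) was at 157, 215 and 206 CPM in CTL and 160, 186 and 191 CPM in Prdm1-CKO mice. All Prdm1-CKO values fell inside the CTL range, and the highest mouse was 1.37-fold above the lowest, the least variable of the 7 genes. The log2 difference was -0.10 (SE 0.169, 95% interval -0.49 to 0.28, adjusted p = 0.996 from edgeR), -0.03 without CTL replicate 2 and 0.02 by voom with sample weights.

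Id3 (chr4:136143497-136145755, plus strand) was at 211, 131 and 205 CPM in CTL and 202, 178 and 148 CPM in Prdm1-CKO mice. CTL replicate 2 was the lowest of the 6, and the other CTL mice were the highest. The log2 difference was -0.05 (SE 0.217, 95% interval -0.55 to 0.45, adjusted p = 0.996 from edgeR) and became -0.25 without CTL replicate 2 (SE 0.171, adjusted p = 0.999 from edgeR). It turned positive, up to 0.06, when CTL replicate 1, CTL replicate 3 or Prdm1-CKO replicate 3 was left out. The ratio of Id3 to Id2 in RPKM was 1.83, 0.829 and 1.36 in CTL and 1.72, 1.30 and 1.05 in Prdm1-CKO mice, with means of 1.34 ± 0.501 and 1.36 ± 0.335 (SD, n = 3 each).

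Ascl2 (chr7:142966829-142969264, minus strand) was the most variable gene of the 7, with the highest mouse 4.12-fold above the lowest. CTL libraries held 48, 20 and 66 counts of it and Prdm1-CKO libraries 165, 74 and 39, or 3.28, 2.36 and 9.74 CPM and 9.28, 7.50 and 2.67 CPM. Each group held both low and high mice, and the highest was CTL replicate 3. The means were 5.13 ± 4.02 and 6.48 ± 3.42 CPM (SD, n = 3 each), a log2 difference of 0.35 (SE 0.68, 95% interval -1.21 to 1.91, adjusted p = 0.996 from edgeR). The value depended on single mice, at 0.004 without CTL replicate 2, -0.006 without Prdm1-CKO replicate 1 and up to 1.198 in the other cases. At this depth and spread a 2-fold difference in Ascl2 in either direction was within the interval.

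Bhlhe40 (chr6:108660629-108666925, plus strand) was at 64.04, 63.92 and 92.7 CPM in CTL and 122, 85.2 and 70.9 CPM in Prdm1-CKO mice. CTL replicate 3 lay above both lower Prdm1-CKO mice, and the highest value was that of Prdm1-CKO replicate 1. The means were 73.6 ± 16.6 and 92.6 ± 26.2 CPM (SD, n = 3 each), a log2 difference of 0.34 (SE 0.251, 95% interval -0.24 to 0.91, adjusted p = 0.996 from edgeR), and 0.23 without CTL replicate 2. Its exons share 118 bases with 0610040F04Rik on the opposite strand, and the strand setting of the counting is not given in the sources used here, so reads there cannot be assigned to either gene.

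In the sorted RNA, E protein transcripts summed to less than Id transcripts in every mouse. The summed RPKM of Tcf3, Tcf12 and Tcf4 over that of Id2 and Id3 was 0.0637, 0.119 and 0.0909 in CTL and 0.0560, 0.0906 and 0.0774 in Prdm1-CKO mice. The means were 0.0910 ± 0.0274 and 0.0747 ± 0.0174 (SD, n = 3 each), and the groups overlapped. Without CTL replicate 2, which had the highest ratio, the CTL mean was 0.0773. Tcf3 made up 69.2% to 75.0% of the summed E protein RPKM. That share depends on the lengths, at 54.0% to 61.6% with the longest transcript and 33.4% to 41.6% of the E protein counts with no length. The ratio rests on transcript levels per length, and with the longest transcript as the length it was 0.117 in CTL and 0.0964 in Prdm1-CKO mice. From counts with no length it was 0.339 and 0.285 in the same order. Protein was not measured here, and no other cell type was available as a reference for these ratios.

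CPM of Tcf3 and Tcf12 was lower in deeper libraries, and the Prdm1-CKO libraries were deeper on average. Over the 6 mice, log2 CPM of Tcf3 and log2 total counts had a Pearson r of -0.964 (exact permutation p = 0.0111, adjusted over 7 relations 0.0778) and a Spearman rho of -0.886 (exact permutation p = 0.0333, adjusted 0.117). Without the mice of lowest and highest depth, CTL replicate 3 and Prdm1-CKO replicate 1, r was -0.952. For Tcf12, r was -0.933 (exact permutation p = 0.025, adjusted 0.0875), rho was -0.943 (exact permutation p = 0.0167, adjusted 0.117) and r without the same mice was -0.996. Neither gene passed 0.05 after adjustment, and the relation was examined after the values had been seen. Of all genes tested, 0.124% had an r as low as that of Tcf3 and 0.502% as low as that of Tcf12.

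Id2 had an r of -0.792 (exact permutation p = 0.0806, adjusted 0.188) and a rho of -0.657 (exact permutation p = 0.175, adjusted 0.408), with r at -0.664 without the same mice. The remaining 4 genes had r between -0.159 and 0.192. CPM shares the total count with the depth it is set against. With log2 depth as a covariate, the log2 difference between the groups was 0.06 for Tcf3, -0.01 for Tcf12 and 0.08 for Id2. In the same fit it was -0.13 for Id3, -0.20 for Tcf4, 0.86 for Ascl2 (SE 0.887) and 0.39 for Bhlhe40, each larger in size than without the covariate. With that covariate the direction of Tcf3 and Id2 therefore turned, and the part of depth in these differences was not tested further.

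**Figure D4:**
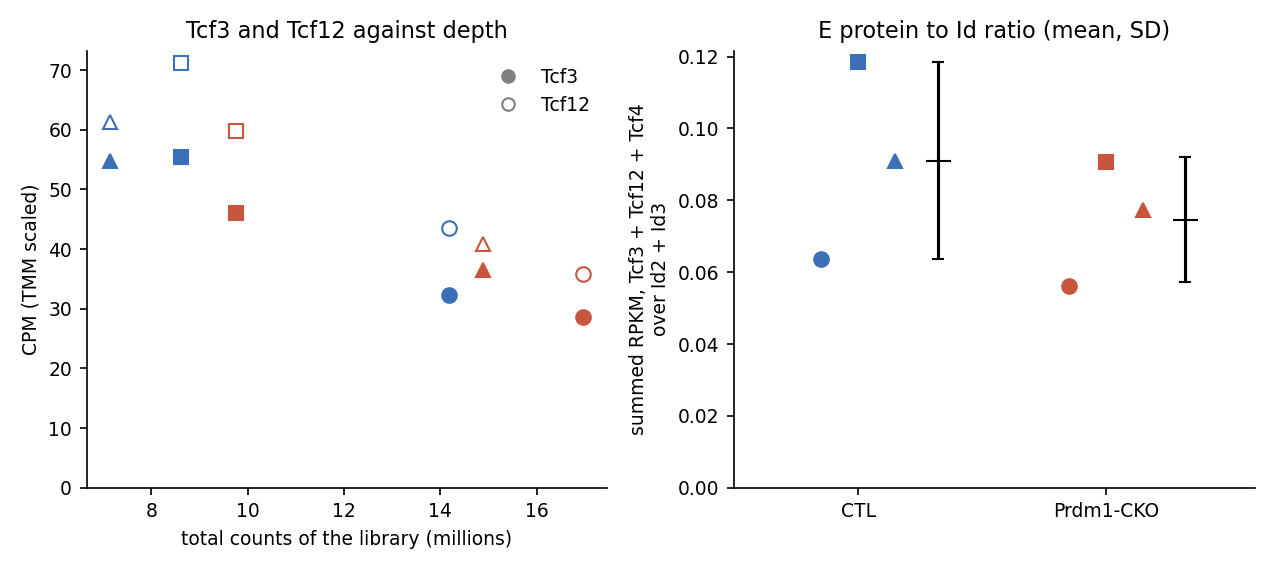
Left, CPM of Tcf3 (filled) and Tcf12 (open) against the total counts of the library as labelled on the axis, coloured by group. Right, the ratio of summed E protein to summed Id RPKM in each mouse with the group mean and SD. Both genes are lowest in Prdm1-CKO replicate 1, the deepest library, and the ratio is highest in CTL replicate 2 at 0.119.

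Of 48 other helix-loop-helix genes, 32 passed the expression filter and in either direction 0 reached an unadjusted p under 0.05, against 2.35% of all genes. Their median log2 difference was 0.07, with 18 of 32 above 0. The most abundant by mean RPKM were Hif1a at 63.9, the hypoxia response factor, Mlx at 48.8, a partner of the glucose-sensing Mondo proteins, Myc at 36.3, a driver of cell growth, Hes6 at 26.3 and Usf1 at 23.7. Of the 48 genes, 6 had 0 counts in every mouse, Id4 among them. The Id family was thus represented by Id2 and Id3, with Id1 far lower at 6.47 CPM in CTL and 4.70 CPM in Prdm1-CKO mice and a log2 difference of -0.47 (SE 0.571).

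In 4 of the 32 tested, every Prdm1-CKO mouse was above every CTL mouse, and in 0 every one was below, beside 8.44% of all genes tested that did not overlap in either direction (663 higher and 565 lower). They are named here after their values were seen. Hes1, a Notch target and repressor, counted 48, 0 and 45 in the CTL libraries against 245, 110 and 119 in those of Prdm1-CKO mice, a log2 difference of 1.75 (SE 1.02). Bhlhe41, the close relative of Bhlhe40, had 81, 0 and 8 counts against 112, 66 and 134, a difference of 1.67 (SE 1.08). Tfec, of the MiT family known from macrophages, had 19, 2 and 10 counts against 32, 30 and 62, a difference of 1.58 (SE 0.762). Tfeb, a regulator of lysosomal genes, had 299, 170 and 110 counts against 370, 232 and 320, a smaller difference of 0.22 (SE 0.229). CTL replicate 2 held 0 counts of Hes1 and Bhlhe41 and 2 of Tfec, and the adjusted p from edgeR was 0.996 for each. Without this mouse the differences were smaller, at 1.16 for Hes1 (SE 0.436, unadjusted p = 0.0281, adjusted p = 0.999 from edgeR), 1.08 for Bhlhe41 (SE 0.592) and 1.11 for Tfec (SE 0.602), while that of Tfeb was 0.25 (SE 0.234). CTL replicate 2 was also the mouse with the lowest B cell and macrophage marker sums and the fewest genes detected. The part of either in these differences was not tested.

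Ahrr, which did not pass the filter, counted 20, 120 and 4 in the CTL libraries against 4, 0 and 7 in those of Prdm1-CKO mice, with most of the CTL counts in replicate 2. The other CTL mice were at 1.37 and 0.591 CPM, and the Prdm1-CKO mice at 0.225, 0 and 0.478 CPM. It too is named after its values were seen. By DESeq2 its log2 difference was -4.48 (adjusted p = 0.249 from DESeq2).

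**Figure D5:**
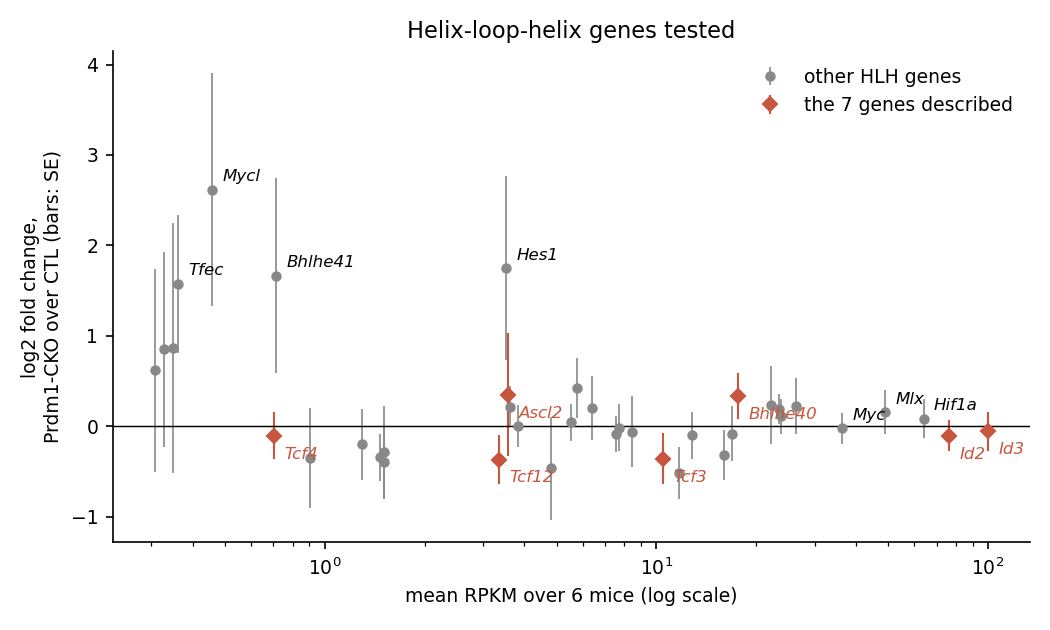
Log2 fold change of Prdm1-CKO over CTL (bars, SE) against mean RPKM over 6 mice on a log axis, for the 7 genes described (diamonds) and the 32 other helix-loop-helix genes tested (circles). Mxd4, at 11.7 RPKM, has the lowest value of the circles at -0.52, and the differences above 1.5 belong to genes of low level such as Hes1, Bhlhe41 and Mycl.

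Genes linked to E proteins or ASCL2 in T cells were a list of 26, of which 23 passed the filter. Of these, 0 were higher and 1 was lower at an unadjusted p under 0.05, against 2.35% of all genes, and 2 lay below all CTL mice without overlap, against 8.44% of all genes. The median log2 difference was -0.07, with 8 of 23 above 0. Rag1, Rag2 and Ptcra, which E proteins drive in developing lymphocytes, had 0 counts in all 6 mice.

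Cd4, whose thymic expression depends on E proteins, was at 894, 1058 and 1029 CPM in CTL and 822, 772 and 845 CPM in Prdm1-CKO mice. The groups did not overlap, and the log2 difference was -0.29 (SE 0.124), with an unadjusted p of 0.0465 and an adjusted p of 0.996 from edgeR. The unadjusted p stayed under 0.05 with DESeq2 size factors and without CTL replicate 1, and in no other fit run, those without CTL replicate 2 included. Gata3, an early T cell and Th2 factor, was at 205, 255 and 265 CPM in CTL and 182, 202 and 189 CPM in Prdm1-CKO mice, a difference of -0.34 (SE 0.151, adjusted p = 0.996 from edgeR), and is named after its values were seen.

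Cxcr5, the follicle homing receptor that ASCL2 is known to induce, was at 313, 254 and 476 CPM in CTL and 325, 267 and 363 CPM in Prdm1-CKO mice. The groups overlapped, with a difference of -0.13 (SE 0.240). CTL replicate 3 had the highest and CTL replicate 2 the lowest CPM of both Cxcr5 and Ascl2, but Prdm1-CKO replicate 3 had the next highest Cxcr5 with the next lowest Ascl2. Ccr7 and Selplg, which ASCL2 is known to lower, had differences of -0.07 (SE 0.145) and -0.06 (SE 0.132). Among the remaining named genes, the Tfh regulator Bcl6 had 0.01 (SE 0.233), Tcf7, which encodes TCF1, -0.15 (SE 0.140), Il7r -0.31 (SE 0.206) and Egr2, a TCR-induced gene, -0.03 (SE 0.299).

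The genes whose pattern over the 6 mice was most like that of each gene were found among 8791 other protein-coding genes with a mean of at least 10 CPM (8792 for Ascl2). The measure was the root mean square (RMS) difference of mean-centred log2 CPM, where 0 is an identical pattern. The closest to Tcf3 were Zcchc18 at 0.0292 and Cop1 at 0.0596, and to Tcf12 Ldb1 at 0.0504 and Znrf3 at 0.0624. The closest to Tcf4 were Csnk2a1 at 0.0532 and Hk3 at 0.0557. Id2 was nearest to Oxct1 at 0.0403 and Fibp at 0.0491, and Id3 to Flot1 at 0.0510 and Zfp959 at 0.0768. Bhlhe40 was nearest to Tnfsf8, the CD30 ligand, at 0.0921 and to Gemin7 at 0.127.

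Ascl2 had no near match, with Dusp14 at 0.367 and Hook2 at 0.371 as its closest. Its own RMS deviation over the mice was 0.829, beside 0.169 for Id2 and 0.364 for Tcf3. All these patterns share the same 6 libraries and their depth, and with so many candidates and so few mice a close pattern is a description only.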

How the data were processed

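Splenic Tfh RNA of 3 CTL and 3 Prdm1-CKO mice was measured by Smart-seq2 with paired reads of 25 bases. The authors deposited raw counts per gene, made with featureCounts on GRCm38, 1 library per mouse and not normalized. The submitters' processing notes name STAR 2.4.2a and DESeq2. Strand, mate and multi-mapping settings are not given in the sources used here. Titles call the second group a knockout and the genotype field a knockdown. It was taken as Prdm1-CKO.

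Identifiers were matched to GENCODE M21, which held 53274 of 53379 (50604 in the same version), and Tcf4 is given no coordinates because its version differed. Counts were tested with edgeR 4.0.16 in R 4.3.3 (TMM, filterByExpr, quasi-likelihood F test, no covariate), with Benjamini-Hochberg adjustment over 14555 genes, two-sided. Intervals are 95%. Log2 CPM used a prior count of 2. RPKM, ratios and the sign-flip tests were computed from these values in R, and the permutation tests against depth in Python 3.11.15. Exact tests of 3 against 3 mice cannot give a p under 0.1. On simulated data with 200 genes changed 4-fold among 14555 in this comparison, the share recovered was 65% by edgeR, beside 10 false calls, and 75.5% by DESeq2 1.42.0, beside 60. Alternatives were DESeq2 size factors and its Wald test, an unfiltered fit, a filter of 10 counts per mouse, the replicate block, voom with sample weights (limma 3.58.1), each mouse left out, and other lengths. Depth as a covariate was added after seeing the data.

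The 7 genes and all lists were chosen with earlier results of these data known, and some list genes are counted but not reported by name here. Named genes were the 7, Prdm1, the 5 other helix-loop-helix genes of highest RPKM, 8 linked genes (Cxcr5, Ccr7, Selplg, Bcl6, Tcf7, Il7r, Egr2 and Cd4), genes of these 2 lists at an unadjusted p under 0.05 and the 2 genes most alike to each of the 7. Other genes, such as Hes1, Ahrr, Gata3 and the cell markers, were named after their values were seen. The remaining marker lists gave summed CPM in CTL and Prdm1-CKO mice of 1130 to 1217 and 1040 to 1200 (8 regulatory T cell genes), 173 to 251 and 234 to 282 (10 plasmacytoid DC genes), 151 to 238 and 163 to 303 (8 conventional DC genes), 277 to 358 and 234 to 282 (10 CD8 and NK cell genes), and 42.2 to 135 and 54.9 to 69.2 (7 basophil and mast cell genes).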

Additional observations from a re-analysis of the deposited data

How the results depend on the processing

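None of the 7 genes had an unadjusted p under 0.05 in any fit run, and 0 did with each mouse left out (0 to 0). Signs near 0 were not stable. Id2 changed from -0.10 to 0.019 by voom with sample weights and to 0.077 with log2 depth as a covariate (added after seeing the data), and Tcf3 from -0.36 to 0.060 with depth. With each mouse left out, log2 differences ran from -0.25 to 0.059 for Id3, from -0.24 to 0.0070 for Tcf4 and from -0.0059 to 1.198 for Ascl2. Id2 (-0.25 to -0.02), Tcf3 (-0.59 to -0.20), Tcf12 (-0.60 to -0.21) and Bhlhe40 (0.09 to 0.54) kept their direction. The step of Tcf12 over Ascl2 ran from -0.21 to 0.39.

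Counts over all genes moved more. Genes at an adjusted p under 0.05 numbered 9 by DESeq2 and 1 with no filter. At an unadjusted p under 0.05, DESeq2 gave 264 higher and 417 lower, no filter 426 and 510, voom 268 higher, and leaving out each mouse 58 to 580 higher and 107 to 617 lower. Other helix-loop-helix genes numbered 2 by DESeq2 (Mycl and Ahrr), 3 with no filter (with Hes1), 1 under the replicate block (Mxd4), 1 by voom (Hes1) and 1 to 4 with a mouse left out. The set of genes tested differs between fits, and Ahrr did not pass the filter of the first. These numbers therefore cannot be set directly against the 0 of 32 given above. Linked genes numbered 0 by DESeq2, with no filter, at 10 counts in every mouse, under the block and by voom, 2 with depth, and 0 to 3 with a mouse left out. The ratio of E protein to Id transcripts was 0.339 in CTL and 0.285 in Prdm1-CKO mice from counts with no length, and 0.0964 in Prdm1-CKO mice with the longest transcript.

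Same-numbered mice correlated at 0.158, 0.0282 and 0.0160 in their deviations from the group means, so the numbers were not taken to pair them. With the replicate block the differences were -0.09 for Id2, -0.34 for Tcf3, -0.37 for Tcf12, 0.53 for Ascl2 and 0.32 for Bhlhe40. The causes of these shifts were not tested. With 3 mice a group the intervals are wide, and differences inside them are compatible with these data.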
